A study of Mus musculus with 8 samples.

Results

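Of the 12673 peaks that were called on nuclear chromosomes after 36 sonication cycles, 2950 (23.3%) had no peak called after 30 cycles within 1 kb of either edge. These isolated 36-cycle peaks are described here. They were chosen by the peak calls themselves, so their absence from the 30-cycle list is the definition of the group and not a result. Of the remaining 36-cycle peaks, 8417 overlapped a 30-cycle peak, and 1306 lay within 1 kb of one without overlap. The mirrored rule, applied to the 18278 nuclear 30-cycle peaks, left 8835 isolated 30-cycle peaks.

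WFS1 (wolframin) is a membrane glycoprotein of the endoplasmic reticulum, whose membrane is continuous with the nuclear envelope, and it is best known for calcium homeostasis and the unfolded protein response. Chromatin at the nuclear periphery is commonly compact, AT-rich and poor in genes, and compact chromatin is sheared less readily by sonication than open chromatin. Enhancers and promoters, in contrast, are open and carry short binding motifs of transcription factors, such as AP-1, RUNX and the E-box factors of the basic helix-loop-helix class.

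WFS1 ChIP was performed in proliferating wildtype C2C12 cells, a mouse myoblast line, after crosslinking with DSG and formaldehyde. One part of the immunoprecipitated material was sequenced after 30 sonication cycles and the other after 6 further cycles, so both lists come from the same immunoprecipitation and the same cells, and neither is a replicate of the other. The other 6 libraries of the series, inputs and WFS1 ChIP of knockout cells expressing FLAG-tagged WFS1, were not used here. With 1 wildtype ChIP library for either number of cycles, no test between conditions was possible, and the 95% intervals given below cover counting error over peaks only.

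The sequences that recur in the results are shown first, on the forward strand of GRCm38. For each motif this is the central 200 bp of the widest isolated 36-cycle peak whose centre holds it. Here and below, a peak is said to hold a motif only if its central 200 bp do, and the rest of the peak did not count. Capitals mark the motif. The AP-1 motif TGACTCA, or TGAGTCA on the other strand, was present in the 948 bp peak in an intron of Rad51b, at chr12:79352278-79352477. The E-box CAGCTG, a palindrome, was present in the 943 bp peak between genes at chr11:22668939-22669138, 90.7 kb from the body of B3gnt2. The RUNX motif, searched as AACCGC and AACCAC with their reverse complements GCGGTT and GTGGTT, was present in the 1161 bp peak 0.635 kb downstream of the start site of Tmem17, at chr11:22512623-22512822. None of these motifs contains another of them. The last sequence belongs to the peak with the lowest GC content in the surrounding 100 kb (31.6%), at chrX:126779240-126779439, 335 kb from the nearest 30-cycle peak.
AP-1, Rad51b: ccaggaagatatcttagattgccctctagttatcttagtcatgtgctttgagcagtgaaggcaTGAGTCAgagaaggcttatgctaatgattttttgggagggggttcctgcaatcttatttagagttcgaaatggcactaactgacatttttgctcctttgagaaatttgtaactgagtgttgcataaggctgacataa
E-box, B3gnt2: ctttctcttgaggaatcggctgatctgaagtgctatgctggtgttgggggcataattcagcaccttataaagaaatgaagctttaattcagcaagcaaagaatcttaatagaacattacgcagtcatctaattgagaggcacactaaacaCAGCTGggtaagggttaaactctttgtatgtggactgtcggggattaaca
RUNX, Tmem17: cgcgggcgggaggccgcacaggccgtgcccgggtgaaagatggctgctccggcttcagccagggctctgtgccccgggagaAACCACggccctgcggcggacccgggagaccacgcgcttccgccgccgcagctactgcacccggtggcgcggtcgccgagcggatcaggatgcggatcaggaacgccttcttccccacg
Lowest GC, X chromosome: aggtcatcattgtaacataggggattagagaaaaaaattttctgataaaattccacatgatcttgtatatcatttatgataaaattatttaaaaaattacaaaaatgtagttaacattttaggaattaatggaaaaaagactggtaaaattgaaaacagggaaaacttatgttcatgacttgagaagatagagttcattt
The 4 centres differ widely, from an intron and a CpG-rich region near a start site to AT-rich sequence with a GC content of 25%. They do not span the group, whose central GC content ran from 15.5% to 79.0%.

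Isolated 36-cycle peaks were narrow. Their median width was 254.5 bp (95% interval 251.0 to 259.0), against 390.0 bp for 36-cycle peaks overlapping a 30-cycle peak. The narrowest width in the 36-cycle list was 195 bp, which 440 of the 2950 (14.9%) and 346 of the 8417 overlapping peaks (4.11%) had. Widths of the 30-cycle list started at 242 bp and are therefore not on the same scale. Isolated 36-cycle peaks made up 16.0% of the bases covered by the 36-cycle list.

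The group was not far removed from the 30-cycle peaks. The median distance to the nearest 30-cycle peak was 18 kb, and 741 peaks (25.1%, 23.6 to 26.7) had one within 5 kb. Only 450 (15.3%, 14.0 to 16.6) lay over 100 kb away. In tiled windows of the genome, taken over 1 kb from every peak, the median distance was 124 kb and 54.8% lay over 100 kb away. Just past the threshold, the 295 members at 1001 to 2000 bp had a median width of 256.0 bp, 19.7% of them were at start sites and 11.5% held the AP-1 motif. The 1306 peaks just within it were similar in these values, with 255.0 bp, 18.6% and 9.72%, and the GC content over 100 kb was 45.4% just past the threshold and 44.3% just within it.

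Promoters were well represented. A transcription start site of a gene of any biotype lay within 1 kb of the centre in 547 isolated 36-cycle peaks (18.5%, 17.2 to 19.99). The share was 12.1% (11.4 to 12.8) in the overlapping 36-cycle peaks, a difference of 6.44 percentage points (4.87 to 8.002). In isolated 30-cycle peaks it was 19.1% (18.3 to 19.9), a difference of -0.564 points (-2.19 to 1.06), and 3.65% of the tiled windows lay there. The nearest start site belonged to a protein-coding gene in 387 of the 547 (70.7%), to a long noncoding or antisense gene in 85 and to a small RNA gene in 31.

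Outside start sites, 41.3% (39.6 to 43.1) of the isolated 36-cycle peaks lay in introns, 5.25% (4.51 to 6.12) in exons and 34.9% (33.2 to 36.6) between genes. The intergenic share did not stand apart from isolated 30-cycle peaks, at -0.659 points (-2.65 to 1.33), but was lower than in the overlapping peaks, by -4.92 points (-6.93 to -2.91), and lower than in tiled windows, of which 52.7% were intergenic. Exons were the only one of these 4 locations where isolated 36-cycle peaks exceeded isolated 30-cycle peaks beyond the counting interval, by 1.38 points (0.483 to 2.28).

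**Figure D1:**
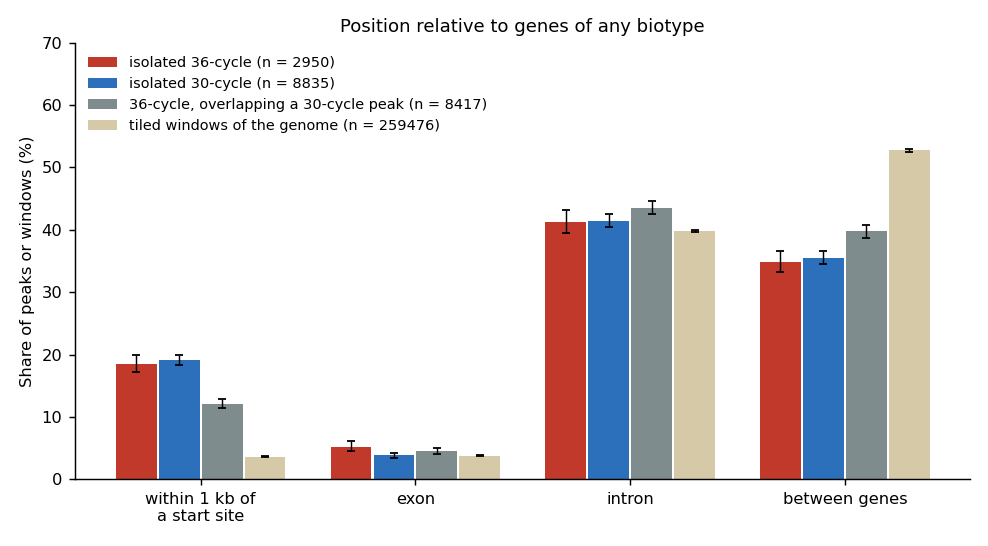
Share of peaks or tiled windows (%) within 1 kb of a start site, or otherwise in an exon, an intron or between genes, with 95% Wilson intervals. Isolated 36-cycle and isolated 30-cycle peaks differ little, the overlapping peaks have fewer at start sites (12.1%), and windows have the fewest (3.65%).

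The median distance from an isolated 36-cycle peak to the nearest protein-coding start site was 27.9 kb (25.9 to 30.6). It was 26.5 kb in isolated 30-cycle peaks, 34.9 kb in the overlapping peaks and 77.8 kb in tiled windows. The range of 1 to 5 kb from a protein-coding start site was filled more than in both other peak sets, with 11.5% (10.4 to 12.7) against 9.47% and 9.15%. At 5 to 20 kb the share was lower than in both, with 17.3% against 19.3% and 20.1%. The difference to isolated 30-cycle peaks was 2.02 points (0.715 to 3.32) in the former range and -2.06 points (-3.65 to -0.463) in the latter.

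Isolated 36-cycle peaks lay in surroundings with more genes than the genome at large. The median number of protein-coding start sites within 500 kb was 9 (8 to 9), as in both other peak sets, whereas tiled windows had 5. Gene deserts were a minority, since 3.898% (3.26 to 4.66) had no protein-coding start site within 500 kb, against 12% of the windows. This share was 1.20 points higher (0.422 to 1.98) than in the overlapping peaks, and in isolated 30-cycle peaks it was 3.17% (2.82 to 3.56). At the other end, 18.1% had at least 20 such start sites, 2.06 points fewer than isolated 30-cycle peaks (interval of the difference -3.68 to -0.435).

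The surroundings were less GC-rich than those of the other peaks and more GC-rich than the genome. Over 100 kb, the median GC content was 43.7% (43.5 to 43.9), against 44.3% for isolated 30-cycle peaks, 44.4% for the overlapping peaks and 40.9% for tiled windows. The difference to isolated 30-cycle peaks was -0.574 points (-0.790 to -0.396). Of the isolated 36-cycle peaks, 8.61% (7.65 to 9.68) lay in the 25% of the genome with the lowest GC content, below 38.5%, and 45.4% (43.6 to 47.2) in the 25% with the highest, above 44.2%. Isolated 30-cycle peaks had 6.44% and 51.7% there, and the overlapping peaks 4.98% and 52.3%. Both tails thus shifted toward AT, by 2.17 points (1.04 to 3.30) in the lowest and -6.32 points (-8.40 to -4.25) in the highest range relative to isolated 30-cycle peaks. The isolation rule is not neutral here, because the median rose to 43.9% when only overlapping peaks were left out and fell to 43.2% when a distance of 5 kb was required.

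At the peaks themselves, the central 200 bp had a median GC content of 46.5% (46.0 to 47.0), compared with 48.0% in isolated 30-cycle and 47.5% in overlapping peaks. Centres under 40% GC made up 19.8% (18.4 to 21.2), which was 5.76 points (4.15 to 7.37) more than in isolated 30-cycle peaks. Long homopolymers were rare, as 4.27% of the centres held a run of at least 10 A or T, close to the 4.21% of tiled windows, and 1.93% held a stretch of at least 20 bases of A and T alone, against 3.68% of windows. CpG-rich centres, defined by a GC content of at least 50% and an observed to expected CpG ratio of at least 0.6, made up 10.5% (9.45 to 11.7), against 12.1% of isolated 30-cycle peaks, 6.94% of overlapping peaks and 0.866% of windows. More than 50% of the centre was repeat-masked in 12.6%, against 30.6% of windows.

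**Figure D2:**
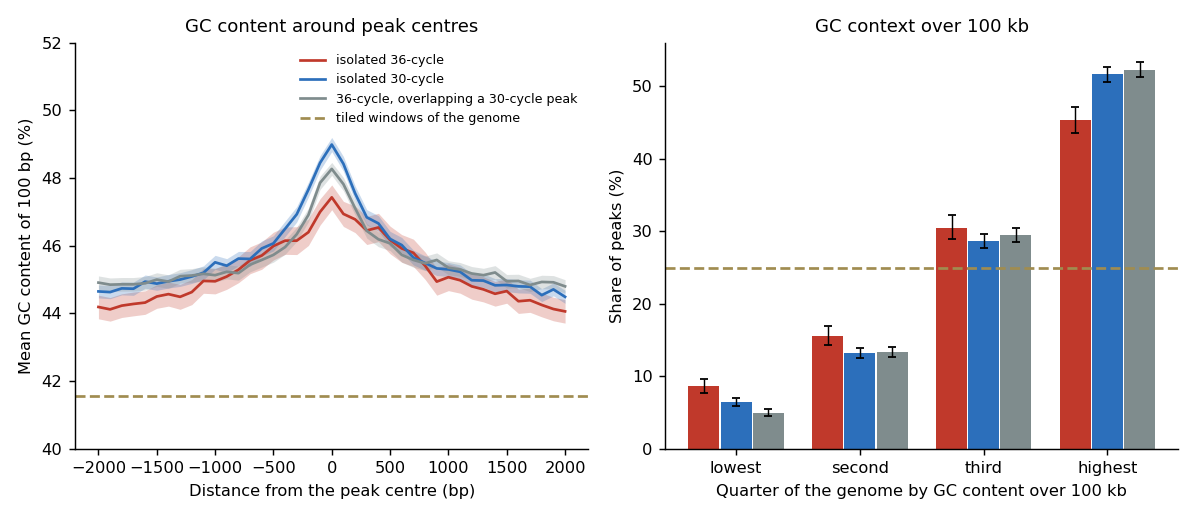
Left, mean GC content (%) in 100 bp steps by distance from the peak centre (bp), with 95% bands. Right, share of peaks (%) in each of 4 equal parts of the genome ranked by GC content over 100 kb, with 95% Wilson intervals, and the 25% of the windows as a dashed line. Isolated 36-cycle peaks rise to 47.4% at the centre, below isolated 30-cycle peaks (49.0%), and have more peaks in the lowest and fewer in the highest part.

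The X chromosome had the highest share of isolated peaks of the chromosomes with over 100 peaks. It held 123 of the 36-cycle peaks, and 59 of them (48.0%, 39.3 to 56.7) were isolated, against 2890 of 12547 (23.0%, 22.3 to 23.8) on the autosomes, a difference of 24.9 points (16.1 to 33.8). Among single autosomes this share ran from 17.0% on chromosome 15 to 25.8% on chromosome 4. All peak sets were sparse on X, and the isolated 36-cycle peaks the least so. They had 0.345 per Mb on X and 1.17 per Mb on autosomes, a ratio of 0.294, compared with 0.217 for isolated 30-cycle peaks and 0.0947 for the overlapping peaks. The ratios were not adjusted for the number of X copies in these cells, which is not given in the sources used here, so its part was not tested.

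The 59 members on X had 45 nearest genes. Their surroundings were AT-rich, with a median GC content over 100 kb of 39.3% against 43.8% for the autosomal members, and 20 of them (33.9%, 23.1 to 46.6) lay in the 25% of the genome with the lowest GC content. On X, 10 of the 59 (16.9%, 9.48 to 28.5) held the AP-1 motif and 9 (15.3%, 8.24 to 26.5) lay at a start site, and these intervals held the shares of the autosomal members (17.8% and 18.6%). Msn, which encodes moesin, a linker of actin filaments to the plasma membrane, had 4 of them in its body, and was named after its value was seen.

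**Figure D3:**
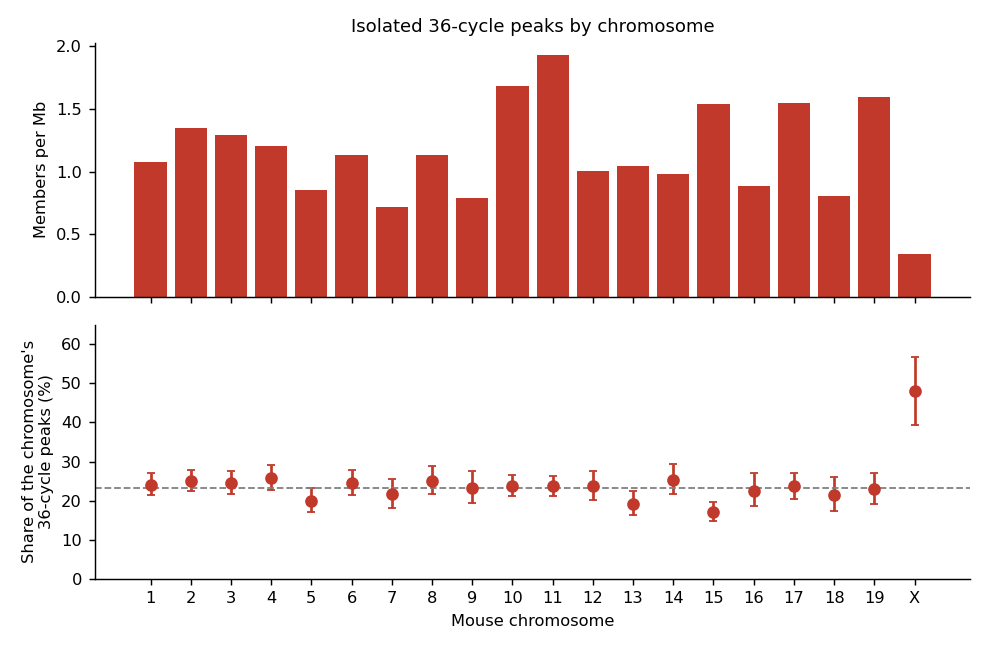
Top, isolated 36-cycle peaks per Mb of each chromosome. Bottom, isolated peaks as a share (%) of the 36-cycle peaks of each chromosome, with 95% Wilson intervals and the share over all nuclear chromosomes as a dashed line. The autosomes lie between 17.0% and 25.8%, and X reaches 48.0%.

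The AP-1 motif had the highest ratio of the motifs searched. Of the 2950 centres, 523 (17.7%, 16.4 to 19.1) held it, against 3.06% of windows weighted to the same GC content in bins of 5%, a ratio of 5.80 (5.37 to 6.28). Over all 2594758 windows of this length, the share was also 3.06%. Isolated 30-cycle peaks had a ratio of 5.78 (5.52 to 6.05) and the overlapping peaks 6.38 (6.11 to 6.66). Away from start sites the ratio was 6.34 in isolated 36-cycle peaks, and at start sites it was 2.83 (2.09 to 3.83). The motif was concentrated at the centre, with 17.7% at the middle 200 bp, 8.44% and 8.17% in the adjoining windows to either side, and 4.03% and 3.25% at 1000 bp.

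The E-box CAGCTG, the form that myogenic factors such as MyoD prefer, was found in 486 centres (16.5%, 15.2 to 17.9), 1.71 times (1.58 to 1.86) the share in GC-matched windows. Of all windows, 7.04% held it. At start sites there was no excess, with a ratio of 0.916 (0.725 to 1.16), and away from them the ratio was 1.96 (1.80 to 2.14). The overlapping peaks had a higher ratio over all locations (2.02, 1.94 to 2.11), and isolated 30-cycle peaks one of 1.66 (1.59 to 1.74).

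The RUNX motif was found in 580 centres (19.7%, 18.3 to 21.1), a ratio of 1.69 (1.57 to 1.82), against 11.3% of all windows. Its ratio was 1.72 in isolated 30-cycle and 1.94 (1.86 to 2.01) in overlapping peaks, and within the isolated 36-cycle peaks the intervals at start sites (1.76, 1.47 to 2.09) and elsewhere (1.68, 1.55 to 1.82) overlapped. At least 1 of the 3 motifs was present in 1288 centres (43.7%, 41.9 to 45.5) against 50.6% of the overlapping peaks and 20.1% of windows, and 22 centres held all 3. The 20.1% was not weighted for GC content.

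Of the other motifs searched, TEAD (GGAATG or CATTCC) had a ratio of 1.28 (1.17 to 1.40), lower than the 1.56 (1.49 to 1.63) of the overlapping peaks. Of all windows, 10.9% held it. The cyclic AMP response element CRE (TGACGTCA, in 0.104% of all windows) was found in 10 centres, a ratio of 1.92 (1.03 to 3.58), with 3.13 (2.38 to 4.12) in isolated 30-cycle peaks. Ratios below 1 were found for YY1 (AAGATGGC or GCCATCTT, in 1.78% of all windows), at 0.406 (0.291 to 0.568), and for NF-Y (CCAATCA or CCAATGA, with the reverse complements TGATTGG and TCATTGG, in 4.99% of all windows), at 0.722 (0.597 to 0.873), and both were also below 1 in the other peak sets. The TATA motif (TATAAA or TTTATA, in 19.3% of all windows) had 0.853 (0.769 to 0.947), with 0.880 and 0.922 in the other sets. Intervals held 1 for ETS (CCGGAAG or CTTCCGG, in 0.543% of all windows), SP/KLF (GGGCGGG or CCCGCCC, 0.921%), a CTCF core (AGGGGGC or GCCCCCT, 1.53%), a homeobox motif (TAATTA, 7.22%) and MEF2 (AAAAATAG or CTATTTTT, 1.90%). NRF1 (GCGCATGC or GCATGCGC, in 0.207% of all windows) was rare and was found in 21 centres, a ratio of 2.09 (1.36 to 3.21), with 1.11 (0.802 to 1.54) in isolated 30-cycle and 0.844 (0.569 to 1.25) in overlapping peaks. Of the 21, 17 lay away from start sites. The CRE, ETS, SP/KLF and NRF1 motifs hold the letters CG, and the windows were matched for GC content but not for CpG.

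**Figure D4:**
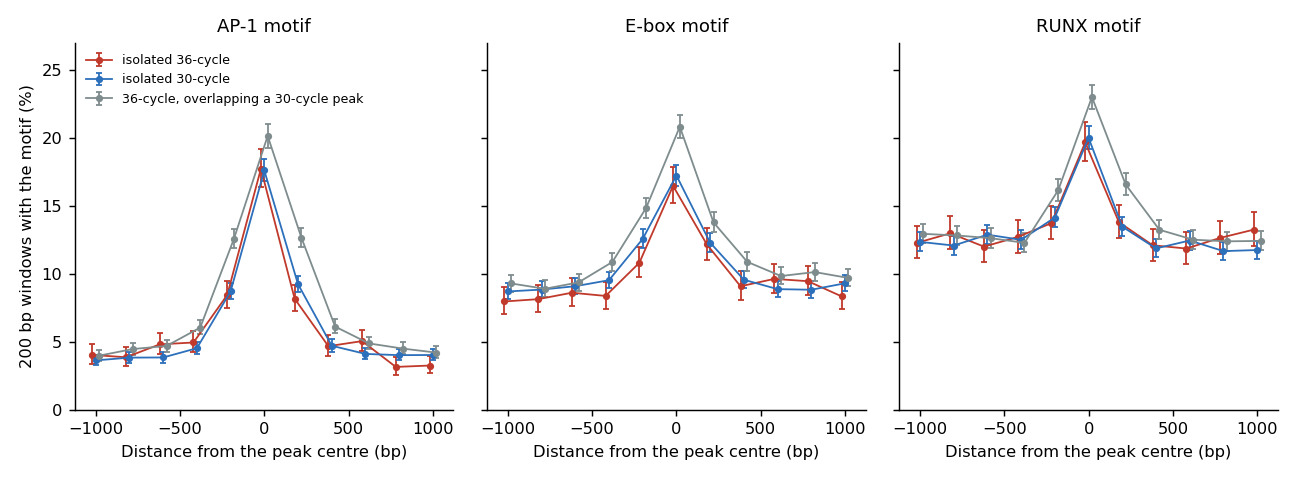
Share of 200 bp windows (%) that hold the AP-1, E-box or RUNX motif by distance from the peak centre (bp), with 95% Wilson intervals. In isolated 36-cycle peaks the share at the centre reaches 17.7%, 16.5% and 19.7%, and the overlapping peaks are higher for each motif.

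Among all hexamers, with reverse complements pooled, 2044 occurred in at least 1% of the centres, and 144 of them (7.05%) had a ratio of at least 1.5 to GC-matched windows. The 1% limit applied to the share in the members themselves. Hexamers expected in under 1% of centres could therefore be ranked only with a raised ratio, so the highest ranks partly follow from the limit. The highest-ranked hexamer was expected in 0.439% of centres. The 10 with the highest ratio fell into a part made of the AP-1 site and a part with the dinucleotide CG. GACTCA (23.5% of centres, ratio 2.49, 2.33 to 2.66) and GAGTCA (24.4%, 2.33, 2.18 to 2.48) both lie within the AP-1 motif. The other 8 hold CG, as do 18 of the highest 20. They were CGCGAA (2.55, 1.805 to 3.599), GCGTTA (2.28), AAACCG (2.26), ACCGCG (2.23), ACGCGA (2.23), AACCGC (2.11), CGACGC (2.09) and ACCGCA (2.06). AACCGC, a RUNX form, and ACCGCA were found in 3.66% and 4.17% of the centres, whereas CGCGAA and ACGCGA occurred in only 33 centres each. The windows were matched for GC content and not for CpG. CpG-rich centres made up 10.5% of members and 0.866% of unweighted windows, and their part in the ratios of hexamers with CG was not tested.

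Away from start sites the AP-1 hexamers rose further, to 2.71 for GACTCA and 2.51 for GAGTCA, and 7 of the 8 with CG were lower, for example 1.53 for ACCGCG and 1.68 for both AACCGC and GCGTTA. Isolated 30-cycle peaks shared 7 of the 10 highest. CAGCTG ranked at position 46. Among the 1447 hexamers expected in at least 5% of centres, the lowest ratios belonged to ATATGC (0.559, 0.475 to 0.657), CAGGTA (0.562, 0.482 to 0.655), AGGTAT (0.575) and GATATA (0.578). For CAGGTA the ratio was 0.502 in isolated 30-cycle peaks and 0.486 in the overlapping peaks.

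The motifs in the central 200 bp varied little with peak width. Among the 594 narrowest (195 to 203 bp), 16.2% (13.4 to 19.3) held the AP-1 motif, and among the 590 widest (352 to 1526 bp) 17.1% (14.3 to 20.4). They varied more with distance to the 30-cycle list. Within 5 kb of a 30-cycle peak, 13.5% (11.2 to 16.1) held the AP-1 motif, against 18.7% (16.1 to 21.6) at 5 to 20 kb and 19.6% (16.2 to 23.5) beyond 100 kb. The E-box was less frequent far from the list, with 19.2% (16.6 to 22.1) at 5 to 20 kb and 11.1% (8.53 to 14.4) beyond 100 kb. These shares were not weighted for GC content. The median central GC content was 47.0% at 5 to 20 kb and 43.0% beyond 100 kb, and its part was not tested. The 450 peaks beyond 100 kb were also more often between genes (43.6%, 39.1 to 48.2) and in the AT-richest 25% of the genome (24.2%, 20.5 to 28.4, against 4.32% within 5 kb).

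The 254 members in the AT-richest 25% were 56.7% intergenic (50.5 to 62.6), and 8.66% of them (5.79 to 12.8) lay at a start site. In the GC-richest 25% the shares were 29.8% and 20.1%. The AP-1 motif was found in 20.9% (16.3 to 26.3) of the AT-richest and 17.0% (15.0 to 19.1) of the GC-richest members, with overlapping intervals, and the E-box was less common (11.8%, 8.40 to 16.4, against 18.5%, 16.5 to 20.7). The highest GC content over 100 kb, 55.9%, was found at the peak chr8:120537213-120537476, in the body of Gse1 near a noncoding start site.

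The isolated 36-cycle peaks were spread over many genes. They had 2204 nearest protein-coding genes, which is 10% of the 21938 annotated, and 1683 of these (76.4%) had a single one. A member lay within 50 kb of the start site of 3261 protein-coding genes (14.9%). The genes were long, with a median length of 51.7 kb against 17.4 kb for all protein-coding genes. Of the 2204, 1550 (70.3%) were also the nearest gene of a 30-cycle peak, which is 21.7% of the 7138 genes nearest to one, and 654 (29.7%) had no 30-cycle peak assigned to them. Of all protein-coding genes, 32.5% were nearest to a 30-cycle peak.

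The 10 genes with the most members had 5 to 10 each. Cdh18, a classical cadherin, had 10, of which 3 were inside the gene, along with 15 isolated 30-cycle and 15 overlapping 36-cycle peaks. Lmna, which encodes the nuclear lamins A and C, had 6, all inside the gene, along with 2 isolated 30-cycle and 5 overlapping 36-cycle peaks. Etv1, an ETS transcription factor, had 6 outside the gene, no isolated 30-cycle peak and 1 overlapping peak. Zeb2, a repressor of the epithelial program, also had 6, with 15 isolated 30-cycle peaks. Gm20388, a gene model that spans 4435 kb of chromosome 8 across other annotated genes, had 6, and its assignment is uncertain. Those with 5 were Ccn1 and Pdgfc, a secreted matrix protein and a growth factor, Rnd3, a small GTPase, and Dusp10, a phosphatase of stress-activated MAP kinases. Phldb2, Tmcc3 and Pde4d also had 5, all inside the gene, and fell outside the 10 because ties were ordered by members per kb of gene body.

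The 6 at Lmna lay in a gene of 29.8 kb, whereas the 10 at Cdh18 and the 6 at Zeb2 were spread over 2.24 Mb and 1.91 Mb of tiled genome to which these genes are nearest. Over all windows there were 1.14 members per Mb.

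Most members stood alone, as 2463 (83.5%) had no other within 10 kb. There were 6 groups of at least 4, and 4 of these lay entirely within a gene. The largest was at Malat1, an abundant nuclear long noncoding RNA, where 8 peaks of 201 to 381 bp covered chr19:5796948-5801807, a span of 4.86 kb inside a gene of 6.98 kb. The nearest 30-cycle peak was 1.03 kb from the group. The group at Lmna had 6 peaks over 9.13 kb of the gene (chr3:88494587-88503715), of 234 to 751 bp, 1 of them with the AP-1 motif.

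The group at Tmcc3, a membrane protein of the endoplasmic reticulum, had 4 peaks within 1.60 kb of the gene. Itgb3, the integrin beta 3 subunit, had 4 over 9.55 kb inside the gene, none with the AP-1 motif in its centre. Another 4 lay between genes over 5.53 kb near Smndc1, a splicing factor, 2 of them with AP-1. The group at Ccn1, an immediate early matricellular gene, had 4 over 3.13 kb, 2 inside the 3.01 kb gene and 2 beyond its 3′ end. At Malat1 and Lmna the members thus lay along the gene body. Overlapping 36-cycle peaks were also nearest to Tmcc3 (4), Itgb3 (6), Smndc1 (3) and Ccn1 (5).

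The widest member, of 1526 bp, lay in an exon of the zinc finger gene Zfp945 (chr17:22850762-22852287), and 71.0% of its centre was repeat-masked. The next were the 1161 bp peak at Tmem17, which encodes a protein of the ciliary transition zone, and a 1111 bp peak in an exon of Gja1 (chr10:56377921-56379031), the gap junction protein connexin 43, 82.3 kb from the nearest 30-cycle peak. Gsg1 had 1001 bp in an intron, 1.15 kb from a 30-cycle peak. Rad51b, a factor of homologous recombination, and B3gnt2, a glycosyltransferase, followed with the 948 and 943 bp peaks shown above. Of the remaining 4, that near Gdap2 (884 bp) was intergenic, that at Dennd1b (841 bp), an exchange factor of Rab GTPases, was at the start site, that in Slc20a2 (783 bp), a phosphate transporter, was intronic, and that in Tgif1 (769 bp), a homeobox repressor of TGF-beta signaling, was exonic. Of these 10 widest, only the one in Rad51b held the AP-1 motif in its central 200 bp and only the one near B3gnt2 the E-box. Most of the length of these peaks lies outside the centre and was not part of this count.

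Gene families were compared by the share of members whose nearest protein-coding gene belongs to the family, beside the share of tiled windows, which gives the territory that the family occupies. Windows within 1 kb of a peak were left out, so small territories crowded with peaks are understated. Families and lists below were not tested, and their counts are descriptions. Of 42 families, the interval lay above the windows' share in 9, below it in 10 and held it in 23. Of those above, integrins were nearest to 15 members (0.508% against 0.150% of windows), collagens to 20 (0.678% against 0.334%), myosins to 13 (0.441% against 0.227%), and dual specificity phosphatases to 13 (0.441% against 0.124%). Rab GTPases (13 members), tripartite motif proteins (11), core histones and Hox genes were also above. The other peak sets also exceeded the windows for integrins, collagens, myosins and dual specificity phosphatases. In this order, isolated 30-cycle peaks had 0.238%, 0.430%, 0.362% and 0.294%, and overlapping peaks 0.3445%, 0.606%, 0.368% and 0.440%.

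Core histone genes were nearest to 6 members in a territory of 0.0189% of windows. The histone genes are clustered, so these 6 peaks placed 45 of the 67 genes (67.2%) within 50 kb of a member, beside 14.9% of all protein-coding genes. For isolated 30-cycle peaks the share was 79.1%, beside 37.9% of all, and for overlapping peaks 85.1%, beside 27.5% of all. The Hox genes were alike, with 3 peaks near 16 of 39 genes (41.0%), and 56.4% for isolated 30-cycle and 53.85% for overlapping peaks. Counts of genes in such clusters therefore stand for few peaks.

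The 10 families below their territory were mostly sensory and neuronal. Olfactory receptors, of which 1134 are annotated, were nearest to 10 members (0.339% against 1.23% of windows), and vomeronasal receptors to 5 (0.169% against 0.838%). Glutamate and GABA receptors (12 members, 0.407% against 0.934%), contactins, neurexins and neuroligins (10, 0.339% against 0.991%), potassium channels (10, 0.339% against 0.968%), ephrins and their receptors (5, 0.169% against 0.538%) calcium and sodium channel subunits (3, 0.102% against 0.311%), protocadherins outside the clusters (10, 0.339% against 0.916%), other cadherins (21, 0.712% against 1.11%) and respiratory chain subunits (2, 0.0678% against 0.298%) were also below. Isolated 30-cycle peaks had shares of 0.170% for olfactory receptors and 0.181% for contactins, neurexins and neuroligins, and overlapping peaks 0.131% and 0.119%. Isolated 30-cycle peaks were also below the members for vomeronasal, glutamate and GABA receptors, protocadherins and other cadherins. They were above the members for ephrins and their receptors (0.351%), potassium channels (0.475%), calcium and sodium channel subunits (0.215%) and respiratory chain subunits (0.2603%). Overlapping peaks were above the members for these except potassium channels (0.333%), and for vomeronasal receptors (0.202%). The zinc finger genes named Zfp, 394 in number, held 43 members (1.46%), close to their 1.34% of windows.

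**Figure D5:**
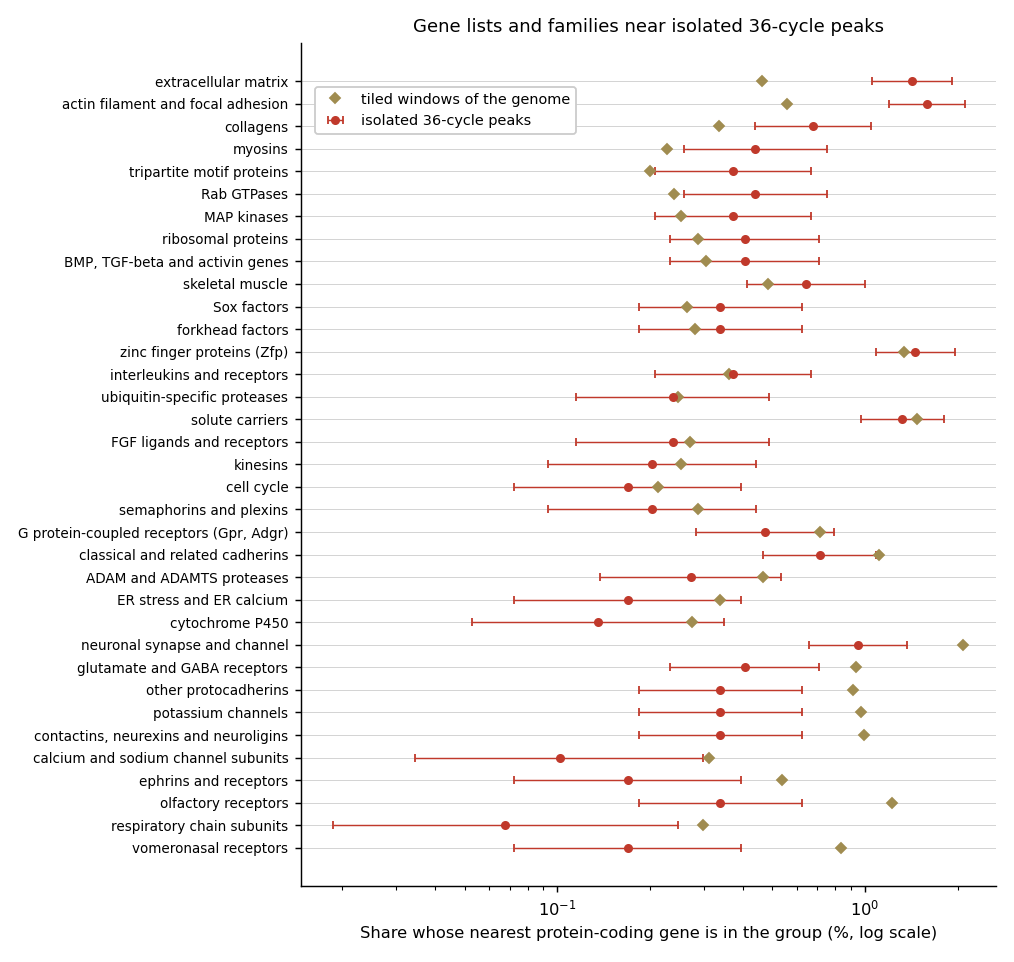
Share (%, log scale) of isolated 36-cycle peaks, with 95% Wilson intervals, and of tiled windows whose nearest protein-coding gene belongs to each list or family shown, all of which hold at least 0.2% of windows. Extracellular matrix and actin genes lie highest above the windows (1.42% and 1.59% of members), and vomeronasal receptors furthest below (0.169%).

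Of the 8 gene lists, actin filament and focal adhesion genes had the most. Of 73 annotated, 31 (42.5%) were the nearest gene of a member, beside 10% of all protein-coding genes, and 39.7% had one within 50 kb of the start site. Peaks lay at the start sites of Itga5, the fibronectin receptor subunit (0 kb), Flnc, the muscle filamin (0.442 kb), Arpc5, a subunit of the Arp2/3 complex (0.496 kb), and Wasl, an activator of that complex (0.650 kb). Arpc5 was not the nearest gene of any member by gene body. The nearest 30-cycle peak was 188 kb from the member at Arpc5 and 1.35 kb from that at Flnc. The list is of long genes, with a median of 51.2 kb, and isolated 30-cycle peaks were nearest to 63.0% of its genes beside 23.9% of all.

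Extracellular matrix genes were similar, with 23 of 58 (39.7%, beside 10% of all) nearest to a member. Isolated 30-cycle peaks were nearest to 65.5% of them (beside 23.9% of all) and overlapping peaks to 63.8% (beside 18.3% of all). Members overlapped or adjoined the start sites of Col12a1 (0 kb), Col4a1 (0.157 kb) and Col4a2 (0.178 kb), and P4ha1, a prolyl hydroxylase of collagen (0.237 kb). Col4a1 and Col4a2 share a divergent promoter and a single 195 bp peak, so they count as 1 site. Of the 44 nuclear envelope and pore genes, 7 (15.9%, beside 10% of all protein-coding genes) were nearest to a member and 22.7% had one within 50 kb, beside 14.9% of all. The closest were at Ranbp2, Nup155 and Nup98, components of the nuclear pore (0, 0.130 and 0.162 kb), and at Banf1, which tethers chromatin to the envelope (0.374 kb). Banf1 was not the nearest gene of any member.

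Immediate early and AP-1 genes, 35 in all, were nearest to a member in 8 cases (22.9%, beside 10% of all protein-coding genes), and to an overlapping peak in 71.4% (beside 18.3% of all). Egr3 (0.0870 kb), Klf2 (0.259 kb), Klf4 (0.714 kb) and Dusp6 (1.77 kb), transcription factors and a phosphatase induced by growth factors, were closest. Of 73 skeletal muscle genes, 12 (16.4%, beside 10% of all) were nearest to a member and 24.7% had one within 50 kb, beside 14.9% of all. Counted by peaks, 0.644% of the members (0.413 to 1.004) were nearest to a gene of this list, an interval that holds the 0.485% of windows. The closest were Actn3, the alpha-actinin of fast fibres (0 kb, a 347 bp peak 111 kb from any 30-cycle peak), Eya1, a coactivator of homeobox factors in muscle development (1.33 kb), Acta1, skeletal alpha-actin (3.22 kb), and Chrnd, a subunit of the acetylcholine receptor (9.07 kb). Neither Acta1 nor Chrnd was the nearest gene of any member.

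Genes of endoplasmic reticulum stress and calcium were nearest to a member in 5 of 36 cases (13.9%, beside 10% of all genes), and 25% had one within 50 kb, beside 14.9% of all. Counted by peaks, 0.1695% of the members (0.0724 to 0.396) were nearest to a gene of this list, an interval that holds its 0.337% of windows. Itpr3, a calcium release channel (0.0380 kb), Tmem38b, a channel for counter-ions (0.222 kb), Hsp90b1, a chaperone (0.813 kb), and Ern1, a sensor of unfolded protein (13.4 kb), were closest by start site. Neither Hsp90b1 nor Ern1 was the nearest gene of any member. Cell cycle genes had 4 of 51 (7.84%), beside 10% of all genes, with E2f2 (1.97 kb), Myc (5.45 kb), Cdt1 (8.50 kb) and Mcm3 (28.2 kb) closest. Cdt1 was not the nearest gene of any member. Neuronal synapse and channel genes, with a median length of 154 kb, were nearest to a member in 17 of 76 cases (22.4%, beside 10% of all), but only 5.26% had one within 50 kb of the start site, beside 14.9% of all protein-coding genes. By peaks, 0.949% of the members (0.6575 to 1.368) were nearest to a gene of this list, below its 2.09% of windows. The closest were Syn3 (15.1 kb), Grm7 (28.5 kb), Nefl (41.4 kb) and Nlgn2 (45.2 kb). Neither Nefl nor Nlgn2 was the nearest gene of any member.

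Of the loci examined singly in the study, Myod1, Myf5, Plxna2 and Pax7 had no isolated 36-cycle peak within 100 kb of the start site. This lack of members does not show a lack of WFS1 peaks. The paper reports WFS1 peaks in the enhancer region upstream of Myod1 and at predicted enhancers of Myf5 and Plxna2. It merged the lists of both cycle numbers, whereas a 36-cycle peak within 1 kb of a peak in the other list is by definition not a member. Of all protein-coding genes, 14.9% had a member within 50 kb of the start site. The nearest member was 1359 kb upstream of Myod1, the master regulator of myogenesis, at the start site of Rras. For Myf5, another myogenic factor, it was 129 kb upstream in an intron of Ptprq, for Plxna2, a semaphorin receptor, 327 kb downstream in an intron of Cd34, and for Pax7, a factor of muscle stem cells, 332 kb downstream near Ubr4. Wfs1 itself had a 238 bp member 33.4 kb downstream of its start site, at chr5:36955533-36955770, beyond the 3′ end of the gene, and 2 members within 100 kb.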

How the data were processed

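The authors mapped reads to GRCm38 (mm10) with NextGenMap and kept reads with a mapping quality of at least 10 (samtools). They ran the MACS2 peak caller separately for 30 and 36 cycles, and merged both peak sets for their own later analyses. The lists used here are the unmerged ones. The deposited lists, as made by the authors, hold positions only (chromosome, start and end), with no count, height, score or q-value. The read depth behind each list is therefore unknown, and none of the values are normalized for depth. The control used in peak calling was not given in the sources used here. The 1 mitochondrial peak of the 36-cycle list and the 5 of the 30-cycle list were left out.

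The members, gene lists, families and motifs were chosen with earlier results of these data known. Distances between lists ran from edge to edge, and were checked against bedtools 2.31.1. Peak centres were assigned to GENCODE release 21 genes, with 1 start site per gene, first to start sites within 1 kb and then to gene bodies. The release is older than that named in the study's Methods. Nearest genes are protein-coding genes, nearest by gene body. The whole-genome comparison used 200 bp windows spaced 1 kb apart, without undetermined bases and over 1 kb from every peak (2594758 for motifs, of which every 10th, 259476 in all, for positions and genes). Window shares behind the motif and hexamer ratios were weighted to the GC content of the peaks in bins of 5%, with no random draw. Other window values, including those for location, gene density, families and motif combinations, were not weighted for GC content. Intervals are 95% Wilson intervals for shares, order statistics for medians and counting error of both shares for ratios, and treat peaks as independent.

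Named are the 10 genes with the most members, the 10 widest members, groups of at least 4 members within 10 kb of each other, Myod1, Myf5, Plxna2, Pax7 and Wfs1, up to 4 genes per list by distance to the start site, and the 10 hexamers with the highest ratio. Malat1, Msn, Gse1, the lowest hexamers, the hexamer ratios away from start sites, the motifs other than AP-1, E-box and RUNX, and the families singled out were picked with their values in view. The values of 1 gene and 1 family that these rules would name are not reported here. The sequence at Gse1 was not printed because it reaches into an untranslated region. Functions for distances, nearest genes, motif ratios, hexamers and intervals were tested on simulated data. Python 3.11.15, numpy 2.4.6, scipy 1.17.1 and matplotlib 3.10.9 were used.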

Additional observations from a re-analysis of the deposited data

How the results depend on the processing

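Of 62 alternatives, 40 values stayed within the counting interval of the reported value or within 1.5 times the reported count. A reversal could be called only for the motif ratios, whose intervals excluded 1, and for the GC difference, whose interval excluded 0. None of these reversed. Leaving out only overlapping peaks (4256 members) moved the GC content over 100 kb to 43.9%, the AP-1 ratio to 5.00 and the share of nearest genes to 12.8%. An isolation distance of 5 kb (2209 members) moved these to 43.2%, 6.31 and 8.16%, and the GC difference to isolated 30-cycle peaks to -0.911 points. The share at start sites was 14.3% with protein-coding genes only and 24.7% with every annotated transcript start, and the share between genes 43.6% with protein-coding genes only. Without peaks at start sites, the central GC content was 45.5%, and the ratios were 6.34 for AP-1, 1.96 for CAGCTG and 1.68 for AACCGC. The GC content was 44.4% over 10 kb and 43.5% over 1 Mb, and 2 protein-coding start sites lay within 100 kb and 23 of any biotype within 500 kb. Against regions 2 kb to either side of the same peaks the ratios were 5.23 for AP-1 and 1.95 for CAGCTG, and without soft-masked bases 5.34 and 1.502. The intergenic difference to isolated 30-cycle peaks, whose interval held 0 throughout, changed sign and ran from -0.659 to 0.933 points. The wider peaks of each list changed none of the other values beyond its interval.

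No paired analysis was possible because only the wildtype peak lists were used, 1 for either number of cycles. Depth per library is unknown, so depth and the number of cycles cannot be told apart. The isolation rule excludes positions near the longer 30-cycle list, which lies in GC-rich regions. Its part in the lower GC content was not tested beyond the distances above.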
